A study of Mus musculus with 9 samples.

Results

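The 42 genes described here encode the proteins that license origins, start and carry out DNA replication, supply its nucleotides and rebuild chromatin behind the fork in S phase. They were listed by gene symbol for their known role, and all 42 were found among the 28379 genes of the table. All 42 also passed the filter on low counts, which left 17002 genes for testing. In the pathway annotation of the table, 21 of the 42 are among the 35 genes of DNA replication and 15 are among the 120 genes of the cell cycle, with 29 in at least 1 of them.

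As background, replication begins with licensing, in which the origin recognition complex, Cdc6 and Cdt1 load the ring of MCM proteins onto origins. The GINS complex, Cdc45 and Mcm10 then turn the loaded ring into a working helicase, primase and DNA polymerases copy the strands, and the sliding clamp Pcna keeps the polymerases on the template. Transcription of most of these genes is switched on by E2F factors at the passage from G1 to S phase, where cyclin E acts as the partner of a kinase. Macrophages grown from bone marrow divide in response to macrophage colony-stimulating factor (M-CSF), and RANKL, the cytokine that turns them into osteoclasts, leads the precursors out of the cell cycle before they fuse.

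The cells were primary bone marrow-derived macrophages (BMDMs) from 10-week-old C57BL/6J mice, in 3 groups of 3 libraries, and M-CSF (20 ng/mL) was present in every group. Controls (PBS) had no RANKL. The RANKL group had RANKL at 100 ng/mL. In the group called RANKL + Vit D + K, here also the vitamin group, vitamin D (calcitriol, 1000 nM) and vitamin K (menaquinone-4, 20 μM) were added to that dose of RANKL. Treatment lasted 48 h. The dose of vitamin K is that of the sample labels, and the methods of the study give another one. No library received either vitamin alone, so that the effects of the 2 vitamins cannot be told apart. The methods speak of pooled RNA without saying which cultures or mice stand behind each library, so that a p-value measures only the spread between these libraries, which may be technical.

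Depth was nearly equal, with 65915112 to 68229647 counts per library. All 8 macrophage markers were detected in every library, and their summed FPKM (a read level scaled to gene length and library size) was 26412 to 30649 with PBS, 16672 to 24298 with RANKL and 4533 to 11576 with RANKL + Vit D + K. Of the 8, 6 were called lower with the vitamins against both other groups, and Cd68 was called higher. With RANKL all 9 osteoclast markers exceeded their PBS level, with summed FPKM of 22.9 to 30.4 with PBS, 487 to 1018 with RANKL and 58.2 to 93.1 after the vitamins were added. After the vitamins were added all 9 were at a lower level than with RANKL and 8 were called lower, and Calcr, the calcitonin receptor, was at 0 counts in all libraries of the PBS and RANKL + Vit D + K groups.

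By group mean, transcripts of the replication genes were lowest with PBS, higher with RANKL and highest with RANKL + Vit D + K. In each group the second replicate held the highest level. The mean log2 CPM (log2 of the counts scaled to library size, with a prior count of 2) over the 42 genes was 2.71, 3.39 and 2.69 in PBS libraries 1 to 3. It was 3.61, 5.04 and 3.60 with RANKL. It reached 4.43, 5.28 and 4.56 with the vitamins. RANKL library 2 thus lay above vitamin libraries 1 and 3, while RANKL libraries 1 and 3 lay between the PBS libraries 1 and 3 and every library with vitamins. In bulk RNA, more cells in S phase and more transcript per cell cannot be told apart.

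**Figure D1:**
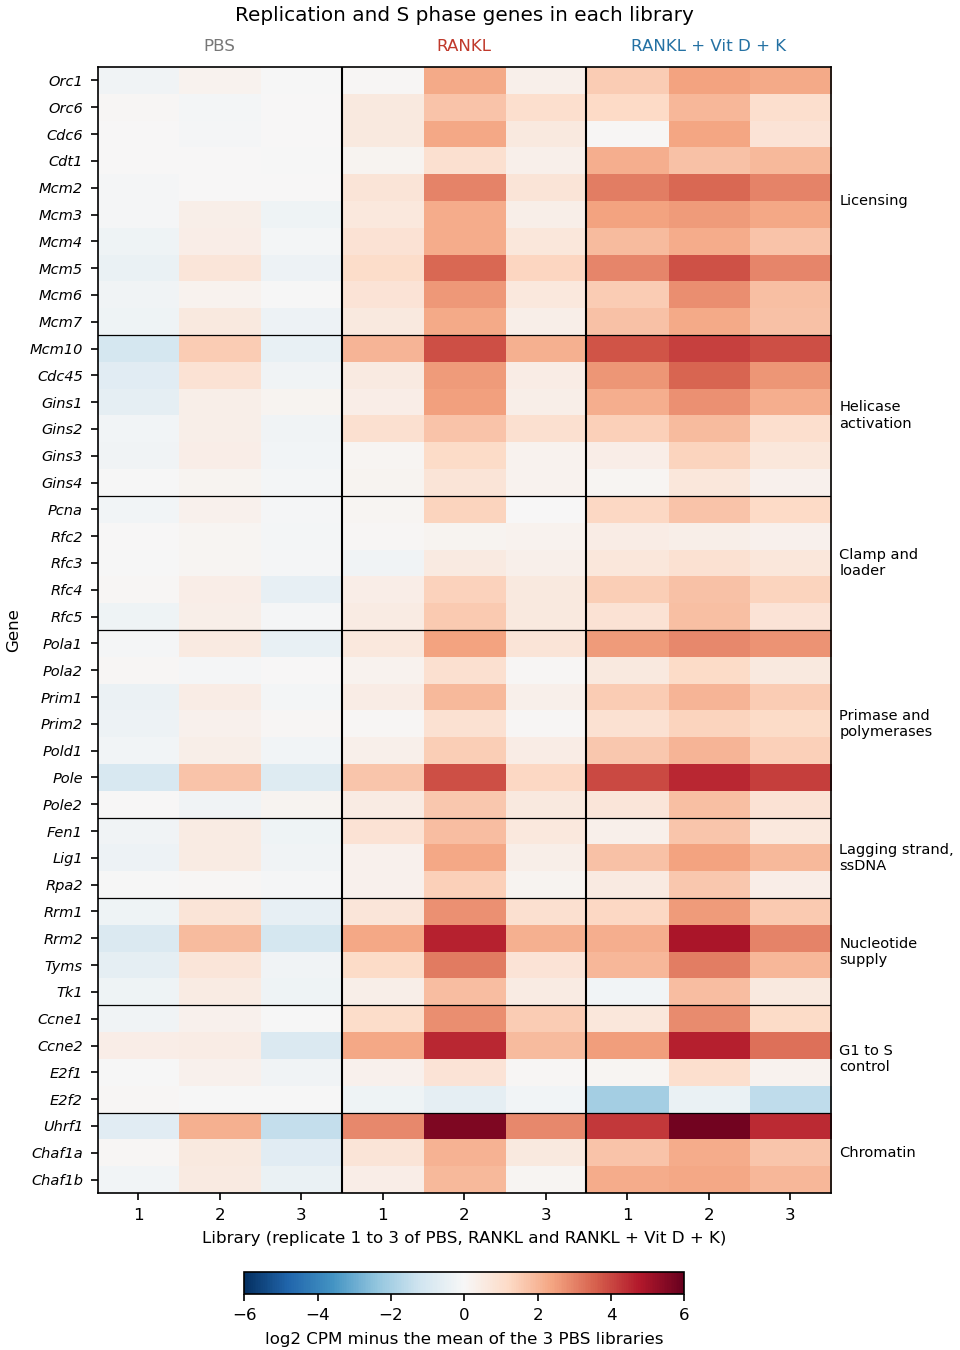
Level of each of the 42 genes in each of the 9 libraries, as log2 CPM minus the mean of the 3 PBS libraries (colour), with the genes grouped by role on the vertical axis and the libraries on the horizontal axis. Library 2 is the darkest column of the RANKL group, and E2f2 is the gene that is below its PBS level in all 3 libraries with vitamins.

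Counts of the 9 libraries were fitted together and compared with the quasi-likelihood test of edgeR. P-values were adjusted by Benjamini-Hochberg over the 17002 genes, and a gene was called at an adjusted p-value under 0.05. Fold changes are on the log2 scale with their standard error (SE).

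Between RANKL and PBS, the fitted value was higher with RANKL for 41 of the 42 genes, with a median log2 fold change of 1.22 against -0.04 over all genes, but none of the 42 was called. Of all genes, 2.35% were called higher and 1.26% lower. At an unadjusted p-value under 0.05, 27 of the 42 were higher, and the lowest adjusted p-value from edgeR was 0.0535, for Gins2. DESeq2 called 15 higher, against 6.20% of all genes (Uhrf1, Ccne1, Chaf1a, Mcm2, Mcm5, Pola1, Mcm4, Tyms, Mcm6, Mcm10, Ccne2, Rrm1, Orc6, Gins2 and Mcm3). For 23 of the 42 genes the 3 RANKL libraries lay above the 3 PBS libraries, against 15.7% of all genes. Libraries of the same replicate number deviated together weakly between PBS and RANKL (correlations of 0.122, 0.219 and 0.155), although no label or method states a pairing. In all 3 same-numbered pairs, 40 of the 42 genes were higher with RANKL, against 24.9% of all genes. With a replicate block added to the fit, 14 of the 42 were called higher (Mcm4, Mcm5, Mcm10, Gins2, Rfc5, Pole, Fen1, Rrm1, Rrm2, Tyms, Ccne1, Ccne2, Uhrf1 and Chaf1a) and none lower, against 3.16% of all genes called higher, with a median of 1.09. The block was a shared effect of the replicate number over all 9 libraries, those with vitamins included. Its calls rest on that assumed pairing. Without RANKL library 2 the median fell to 0.47 and none was called. With the 3 libraries of replicate 2 removed, a choice made after seeing the data that leaves 2 libraries in each group, 22 were called higher, against 5.73% of all genes.

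Between RANKL + Vit D + K and RANKL, 37 of the 42 genes had a higher fitted value with the vitamins, with a median log2 fold change of 0.53 against -0.04 over all genes. Cdt1 was the only 1 of the 42 called, whereas 16.4% of all genes were called higher and 17.2% lower. At an unadjusted p-value under 0.05, 10 genes were higher and 1 was lower, and for 8 of the 42 the 3 libraries with vitamins lay above the 3 RANKL libraries, against 21.5% of all genes. Other fits called more. With all libraries kept, DESeq2 called 8 higher, against 19.0% of all genes (Cdc45, Mcm2, Cdt1, Pola1, Chaf1b, Prim2, Pold1 and Mcm3). Voom with sample quality weights called 25 higher and 1, E2f2, lower, against 29.3% of all genes called higher. These weights lower the part of libraries that deviate from their group, and the median of the 42 genes was 0.85. The 25 were Cdc45, Uhrf1, Chaf1a, Mcm2, Mcm5, Cdt1, Pola1, Pole, Mcm4, Rfc4, Chaf1b, Pola2, Prim1, Tyms, Prim2, Mcm6, Mcm10, Pcna, Gins1, Orc1, Mcm7, Rfc3, Pold1, Mcm3 and Lig1. Without RANKL library 2, 22 of the 42 genes were called higher, against 14.2% of all genes, and the median was 1.27. With all 3 libraries of replicate 2 removed, 26 were called higher and 1, E2f2, lower, against 24.6% of all genes called higher. In RANKL library 2, 29 of the 42 genes were above both vitamin libraries 1 and 3, and in libraries 1 and 3 alone 33 of the 42 were higher with the vitamins than with RANKL. Those that were not are Orc6, Cdc6, Gins4, Fen1, Rrm2, Tk1, Ccne1, E2f1 and E2f2.

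Between RANKL + Vit D + K and PBS, 34 of the 42 genes rose and 1, E2f2, fell, with a median log2 fold change of 1.80 against -0.04 over all genes. Of all genes, 19.8% were called higher and 21.0% lower. For 37 of the 42 genes the groups did not overlap, with vitamins higher, against 24.1% of all genes. The genes not called were Cdc6, Gins3, Gins4, Fen1, Rpa2, Tk1 and E2f1. Leaving out PBS library 1 or PBS library 3 reduced the calls to 20 higher and none lower in each case, against 13.9% and 14.5% of all genes called higher. The comparisons share their PBS, RANKL or vitamin libraries and are not independent of each other.

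**Figure D2:**
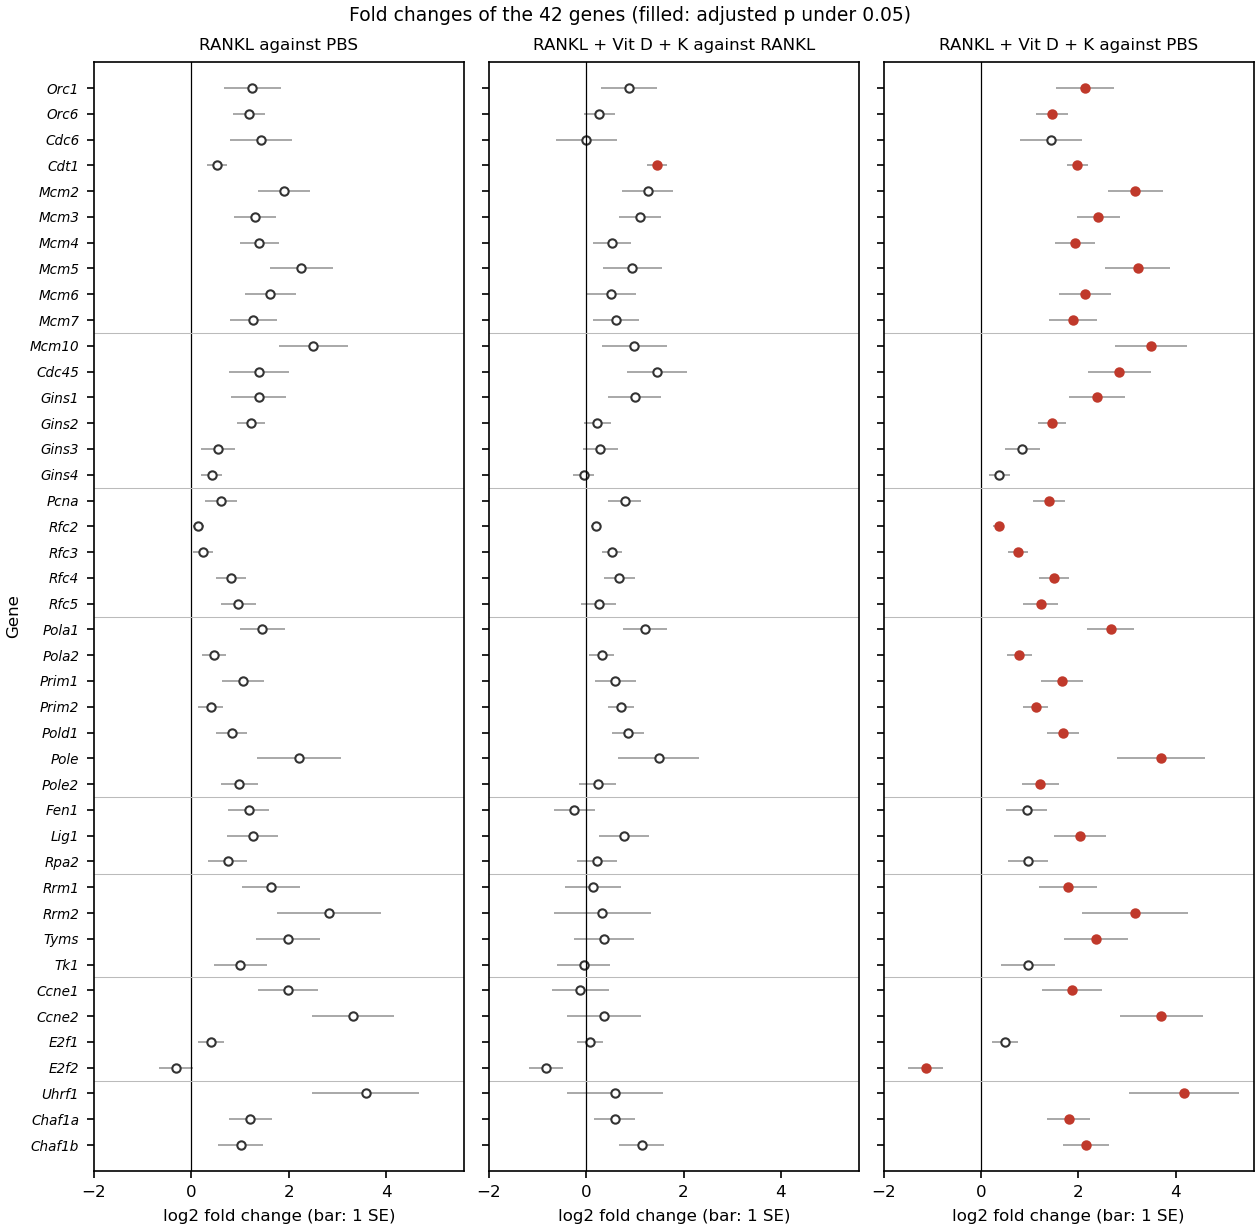
Log2 fold change of each of the 42 genes (points) with 1 SE (bars) in the 3 comparisons, 1 panel each, with filled points for an adjusted p-value under 0.05. No point is filled for RANKL against PBS, 1 (Cdt1) for the vitamins against RANKL, and 35 for the vitamins against PBS.

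The spread within the groups was itself patterned. The second replicate was the highest of its group for 36 of the 42 genes with PBS, 40 with RANKL and 40 with RANKL + Vit D + K, whereas it was the highest for 34.0%, 35.7% and 44.5% of all genes. The median difference between replicate 2 and the mean of replicates 1 and 3 was 0.55 with PBS, 1.47 with RANKL and 0.57 with RANKL + Vit D + K on the log2 CPM scale, and over all genes it lay between -0.03 and 0.06. With RANKL, 24 of the 42 genes lay above the 95th percentile of all genes in this difference, compared with 4 with PBS and 1 with RANKL + Vit D + K. Replicates 1 and 3 were close to each other, with a median absolute difference of 0.15, 0.15 and 0.16 in the 3 groups.

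Other genes also set replicate 2 apart. The summed FPKM of the 8 markers of neutrophils and their progenitors was 62.8, 124 and 10.8 in PBS libraries 1 to 3, 84.7, 141 and 10.7 in the RANKL libraries and 0.757, 1.72 and 0.551 in the libraries with vitamins. Libraries 1 and 3 differed in these markers with PBS and with RANKL. Camp, Elane, Mpo, Retnlg and Ly6g were at 0 counts in all libraries with vitamins. The osteoclast markers were highest in RANKL library 2 (1018, beside 658 and 487), and the macrophage markers were lowest there (16672, beside 24298 and 24159). With the vitamins, library 2 held the highest macrophage markers (11576, beside 4533 and 6218). Markers of haematopoietic progenitors, of which Cd48 held most counts, summed to 121 to 141 with PBS, 109 to 129 with RANKL and 60.1 to 81.1 with the vitamins, and Myb and Kit had at most 43 and 205 counts in any library. Markers of B and T cells (5 of 8 in the table), stromal cells (6 of 6) and erythroid cells (5 of 6) summed to at most 1.27, 0.318 and 0.473 in any library. The part of other cell types in the level of the replication genes was not tested.

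**Figure D3:**
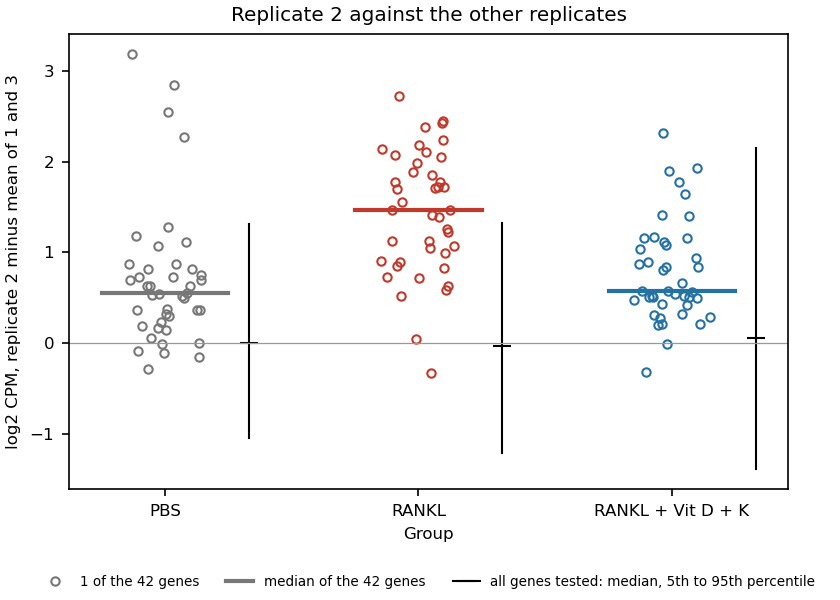
Replicate 2 minus the mean of replicates 1 and 3 in log2 CPM for each of the 42 genes (circles) in each group, with their median (coloured line) and the median and 5th to 95th percentile of all 17002 genes (black). The median of the 42 genes is 1.47 with RANKL, above the 95th percentile of all genes, and 0.55 and 0.57 in the other groups.

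Promoter sequence played no part in how the genes were listed. Promoter windows of 250 bases before to 50 bases after the start were available from RefSeq (GRCm38.p6) for 34 of the 42 genes. Words of the E2F type (TTTCCCGC, TTTCGCGC, TTTGCCGC or TTTGGCGC, on either strand, overlaps allowed) were found in 15 of these 34 genes (44.1%), compared with 2.60% of all 27025 genes with a window and 3.29% of coding genes. Of all 32851 windows, 2.26% held one. The other 19 of the 34 members had none. The pentamer CCAAT, on either strand, was in 20 of the 34 (58.8%), compared with 41.1% of all genes with a window and 42.3% of coding genes. A word match is a description of the sequence and not a bound site. The upstream stretch of Mcm6, at chr1:128359706-128359825 on the minus strand, holds 3 such words at 2 places and is printed because this gene had the highest level of the MCM subunits. Capitals mark the words, also where they are read on the other strand.
Mcm6: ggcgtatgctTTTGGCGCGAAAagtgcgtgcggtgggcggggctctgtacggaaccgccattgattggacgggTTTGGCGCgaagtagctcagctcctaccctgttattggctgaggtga

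Shorter stretches around the words are printed for a selection of the other genes that hold one, not for all of them. Mcm5 (chr8:75109347-75109376, plus strand) has 2 overlapping words on opposite strands, as Mcm6 does. Orc1 (chr4:108579418-108579443, plus strand), Pola1 (chrX:93632277-93632302, minus strand) and Uhrf1 (chr17:56304119-56304144, plus strand) have 1 each upstream of the start. In Cdt1 (chr8:122568038-122568063, plus strand) and in E2f2 (chr4:136172304-136172323, plus strand) the word lies after the start. E2f2 is included because it moved against the rest.
Mcm5: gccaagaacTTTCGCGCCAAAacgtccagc
Orc1: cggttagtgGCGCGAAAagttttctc
Pola1: catcacaggGCGCCAAAtgcactccc
Uhrf1: cgagtcgggTTTCGCGCgcccaggcg
Cdt1: aactaccttTTTGGCGCcatggcgca
E2f2: ggcatatagTTTGGCGCtaa

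**Figure D4:**
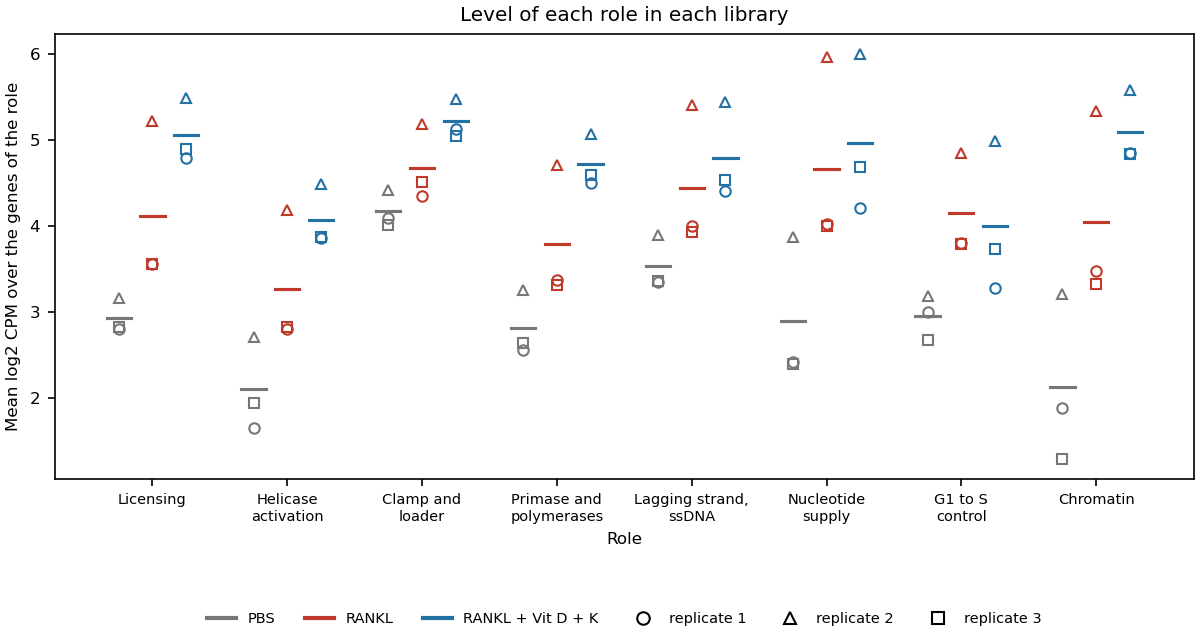
Mean log2 CPM over the genes of each of the 8 roles (vertical axis) in each library, with colour for the group, shape for the replicate and a line for the group mean. In every role the triangle of replicate 2 is the highest of its group, and the line of the vitamin group is above that of the RANKL group in all roles but G1 to S control.

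Licensing factors (10 genes) had a median log2 fold change of 1.35 with RANKL against PBS, 0.75 with vitamins against RANKL and 2.06 with vitamins against PBS, where 9 of the 10 rose. Mcm6, a subunit of the helicase ring with the highest level of the role, had FPKM of 3.63, 4.93 and 4.11 with PBS, 7.97, 28.9 and 6.79 with RANKL and 11.2, 31.3 and 14.0 with the vitamins. The RANKL group was above the PBS group without overlap (1.62 ± 0.52, adjusted p = 0.132, 0.72 without RANKL library 2, adjusted p = 0.442). It overlapped the vitamin group (0.51 ± 0.51, adjusted p = 0.471), although without RANKL library 2 the gene was called higher with vitamins (1.42 ± 0.35, adjusted p = 0.021). The subunit Mcm5 had FPKM of 1.36, 3.03 and 1.42 with PBS, 4.10, 22.5 and 4.67 with RANKL and 12.8, 28.1 and 13.3 with the vitamins. It did not pass with RANKL against PBS but was called with the replicate block (2.26 ± 0.64, adjusted p = 0.0919, with the block 1.99 ± 0.29, adjusted p = 0.0155, 1.10 without RANKL library 2, adjusted p = 0.282). Against PBS it rose 9.28-fold with the vitamins (3.21 ± 0.66, adjusted p = 0.00524).

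Mcm2, another subunit, was at FPKM 0.722, 0.809 and 0.771 with PBS, 1.43, 6.93 and 1.37 with RANKL and 5.88, 9.04 and 5.77 with the vitamins. RANKL libraries 1 and 3 were close to each other and far below the libraries with vitamins, whereas RANKL library 2 was above vitamin libraries 1 and 3 in FPKM, though below vitamin library 1 in log2 CPM (1.26 ± 0.53, adjusted p = 0.0932, 2.39 ± 0.18 without RANKL library 2, adjusted p = 0.000236). Against PBS, Mcm2 rose 8.98-fold (3.17 ± 0.57, adjusted p = 0.0027). Cdt1, the loader of the MCM ring that is destroyed once S phase begins, was the only member called between the vitamins and RANKL and is described for that reason, chosen after its values were seen. Its FPKM was 4.74, 4.75 and 4.43 with PBS, 5.57, 10.4 and 6.11 with RANKL and 19.4, 17.0 and 17.4 with the vitamins. All 3 libraries with vitamins were above all RANKL libraries and close together (1.45 ± 0.21, adjusted p = 0.00178), a call that every alternative kept. Cdt1 was also the member with the smallest fitted gain from RANKL among the licensing factors (0.53 ± 0.21, adjusted p = 0.215), a rank that rests on RANKL library 2. In RANKL libraries 1 and 3, Cdt1 was 0.17 and 0.32 above its PBS mean in log2 CPM, and Orc1 0.05 and 0.29. The other licensing factors, Orc1, Orc6, Cdc6, Mcm3, Mcm4 and Mcm7, ranged from 1.19 to 1.43 with RANKL against PBS and from 0.00 to 1.10 with vitamins against RANKL.

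Helicase activation factors (6 genes) had medians of 1.31, 0.64 and 1.92 in the same 3 comparisons, and 4 of the 6 rose with vitamins against PBS. Gins4, a subunit of the GINS complex and the most abundant of them, had FPKM of 10.1, 11.8 and 9.36 with PBS, 12.6, 20.7 and 12.8 with RANKL and 10.3, 18.2 and 12.0 with the vitamins. It changed least of the 6, and neither RANKL against PBS (0.42 ± 0.21, adjusted p = 0.337) nor vitamins against PBS (0.37 ± 0.21, adjusted p = 0.192) passed. Mcm10, which helps the helicase to start, was near the lower end of the 42 genes with FPKM of 0.0958, 0.615 and 0.146 with PBS, 0.922, 3.55 and 0.975 with RANKL and 2.66, 4.03 and 2.96 with the vitamins. RANKL libraries were all above the PBS libraries (2.51 ± 0.71, adjusted p = 0.0927, with the block 2.62 ± 0.41, adjusted p = 0.0177, 3.76 without PBS library 2, adjusted p = 0.0344, 1.65 without RANKL library 2, adjusted p = 0.325). The vitamin group rose 11.3-fold above PBS (3.50 ± 0.74, adjusted p = 0.00575, 4.73 without PBS library 2). Cdc45, which joins MCM and GINS in the active helicase, had FPKM of 0.420, 1.26 and 0.577 with PBS, 1.05, 4.59 and 0.966 with RANKL and 3.90, 8.28 and 4.11 with the vitamins. The RANKL and PBS groups overlapped (1.39 ± 0.62, adjusted p = 0.271, 0.35 without RANKL library 2, adjusted p = 0.881). Between vitamins and RANKL the difference did not pass (1.45 ± 0.61, adjusted p = 0.0957), and without RANKL library 2 it was called (2.5 ± 0.49, adjusted p = 0.00912). It was also called by DESeq2 with all libraries kept (adjusted p = 0.0364). Gins1 and Gins2 also rose with vitamins against PBS, and Gins3 did not pass (0.84 ± 0.36, adjusted p = 0.089).

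The clamp and its loader (5 genes) had medians of 0.61, 0.53 and 1.22, and all 5 rose with vitamins against PBS. Pcna, the sliding clamp, was the most abundant of the 42 genes, with FPKM of 22.3, 30.6 and 23.7 with PBS, 29.5, 73.1 and 26.8 with RANKL and 55.1, 91.1 and 54.9 with the vitamins. RANKL libraries 1 and 3 overlapped the PBS libraries (0.61 ± 0.33, adjusted p = 0.38, 0.06 to 0.84 with 1 library left out), and the vitamin group rose 2.63-fold above PBS (1.40 ± 0.34, adjusted p = 0.0106). Against RANKL the clamp was not called with vitamins (0.79 ± 0.33, adjusted p = 0.0968). It was called without RANKL library 2 (1.34 ± 0.21, adjusted p = 0.00343) and under voom quality weights, which give deviating libraries less weight (adjusted p = 0.000483). Rfc4 and Rfc5, subunits of the complex that loads the clamp, also rose with vitamins against PBS. FPKM of Rfc4 was 2.81, 3.76 and 1.93 with PBS, 3.89, 8.29 and 4.28 with RANKL and 7.12, 9.99 and 6.73 with the vitamins. All 3 libraries with vitamins were above the PBS libraries (1.5 ± 0.31, adjusted p = 0.00558). FPKM of Rfc5 was 1.93, 2.95 and 2.11 with PBS, 3.48, 7.97 and 3.63 with RANKL and 3.87, 8.65 and 3.93 with the vitamins. In FPKM, vitamin libraries 1 and 3 were close to RANKL libraries 1 and 3, and in log2 CPM they were above them. Rfc5 rose with vitamins against PBS (1.22 ± 0.36, adjusted p = 0.024), a call that was lost without PBS library 1 or 3 or vitamin library 2 (adjusted p = 0.084, 0.0756 and 0.0575). It was called with RANKL against PBS under the replicate block (0.97 ± 0.36, adjusted p = 0.186, with the block 0.89 ± 0.15, adjusted p = 0.0234, 0.53 to 1.21 with 1 library left out). Rfc2 had the smallest change with vitamins against PBS among the genes that rose (0.36 ± 0.10, adjusted p = 0.0232).

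Primase and polymerase subunits (7 genes) had medians of 0.98, 0.72 and 1.67, and all 7 rose with vitamins against PBS. Pold1, the catalytic subunit of polymerase delta, had FPKM of 2.02, 2.97 and 1.97 with PBS, 3.05, 7.43 and 3.24 with RANKL and 6.37, 10.1 and 5.90 with the vitamins. In FPKM, RANKL library 2 was above vitamin libraries 1 and 3, and in log2 CPM it was below vitamin library 1 (0.86 ± 0.32, adjusted p = 0.068, 1.34 ± 0.24 without RANKL library 2, adjusted p = 0.00639). Pole, the catalytic subunit of polymerase epsilon, which copies the leading strand, had FPKM of 0.0846, 0.575 and 0.0987 with PBS, 0.576, 2.92 and 0.429 with RANKL and 2.46, 4.41 and 2.92 with the vitamins. PBS library 2 was as high as RANKL library 1 and above RANKL library 3, so that these groups overlapped (2.21 ± 0.85, adjusted p = 0.205, with the block 2.24 ± 0.45, adjusted p = 0.039, 0.92 without RANKL library 2, adjusted p = 0.729). With vitamins Pole rose 13-fold above PBS (3.70 ± 0.90, adjusted p = 0.011, 5.16 without PBS library 2). Pola1, the catalytic subunit of polymerase alpha, which extends the primers, had FPKM of 0.748, 1.19 and 0.567 with PBS, 1.34, 4.91 and 1.43 with RANKL and 4.33, 6.48 and 4.95 with the vitamins. It was higher with RANKL than with PBS without overlap (1.46 ± 0.46, adjusted p = 0.126, 0.65 without RANKL library 2, adjusted p = 0.371), and higher with vitamins than with RANKL in count-based values without overlap, although neither difference passed (1.20 ± 0.46, adjusted p = 0.0698, 2.02 ± 0.29 without RANKL library 2, adjusted p = 0.00265). Pola2, Prim1, Prim2 and Pole2 rose by 0.79 to 1.67 with vitamins against PBS.

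Of the 3 genes for lagging-strand maturation and binding of single strands, 1 rose with vitamins against PBS, Lig1, the ligase that seals Okazaki fragments. Its FPKM was 2.38, 4.30 and 2.56 with PBS, 3.82, 17.0 and 4.05 with RANKL and 9.39, 17.4 and 11.1 with the vitamins. The RANKL and PBS groups overlapped (1.26 ± 0.52, adjusted p = 0.232, 0.27 without RANKL library 2, adjusted p = 0.82). The vitamin group was called higher than PBS (2.04 ± 0.53, adjusted p = 0.0146). Without PBS library 1 or 3 it was still higher but not called (1.94 and 1.98, adjusted p = 0.0591 and 0.0563). Without RANKL library 2 it was also higher than RANKL (1.77 ± 0.29, adjusted p = 0.0048). Fen1, the nuclease that trims the fragments, had FPKM of 4.48, 7.51 and 4.27 with PBS, 10.3, 22 and 8.49 with RANKL and 5.97, 17.8 and 7.86 with the vitamins. Its RANKL libraries were above the PBS libraries (1.18 ± 0.43, adjusted p = 0.174, with the block 1.12 ± 0.16, adjusted p = 0.015, 0.71 to 1.53 with 1 library left out). Vitamin libraries 1 and 3 were below RANKL libraries 1 and 3 in FPKM, and the comparison of vitamins with RANKL did not pass (-0.24 ± 0.42, adjusted p = 0.688). In log2 CPM, vitamin library 3 was above RANKL library 3. Rpa2, a subunit of the protein that coats single strands, did not pass in any comparison of the edgeR fit to all libraries without a block. With vitamins against PBS (0.97 ± 0.41, adjusted p = 0.0865) it was called higher by DESeq2 and with the replicate block. It was also called there without RANKL library 2 and with all replicate 2 libraries removed.

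Genes of nucleotide supply (4 genes) had medians of 1.82 with RANKL against PBS, 0.24 with vitamins against RANKL and 2.07 with vitamins against PBS, where 3 of the 4 rose. Rrm2, the small subunit of ribonucleotide reductase, which makes deoxynucleotides, varied widely within groups, with FPKM of 0.386, 2.76 and 0.334 with PBS, 3.83, 20.4 and 3.38 with RANKL and 3.05, 23.6 and 5.47 with the vitamins. RANKL libraries were all above PBS libraries (2.83 ± 1.08, adjusted p = 0.197, with the block 3.01 ± 0.25, adjusted p = 0.00326, 1.56 without RANKL library 2, adjusted p = 0.638). Vitamin library 1 was below every RANKL library in FPKM, though above RANKL library 3 in log2 CPM (0.33 ± 1.00, adjusted p = 0.825). Rrm2 rose with vitamins against PBS (3.16 ± 1.09, adjusted p = 0.044). Without vitamin library 2 the log2 fold change was 1.98, without PBS library 2 it was 4.86, and in the other fits named next it was 2.79 to 3.52. The call was lost without PBS library 1 or 3 (adjusted p = 0.129 and 0.124), vitamin library 2 or 3 (0.131 and 0.0596) or RANKL library 1 or 3 (0.0551 and 0.0523). FPKM of Tyms, the enzyme that makes thymidylate, was 0.240, 0.601 and 0.291 with PBS, 0.834, 3.57 and 0.653 with RANKL and 1.27, 3.25 and 1.37 with the vitamins. It was higher with RANKL (1.99 ± 0.65, adjusted p = 0.138, with the block 1.75 ± 0.28, adjusted p = 0.0199, 0.89 without RANKL library 2, adjusted p = 0.51). Tyms rose 5.13-fold with vitamins against PBS (2.36 ± 0.66, adjusted p = 0.0193). This did not pass without PBS library 1 or 3 (adjusted p = 0.073 and 0.0697). Rrm1, the large subunit of the reductase, rose with vitamins against PBS (1.79 ± 0.60, adjusted p = 0.0397), and Tk1, a thymidine salvage kinase, did not pass (0.96 ± 0.55, adjusted p = 0.188).

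Regulators of the passage from G1 to S (4 genes) split. Ccne2, a cyclin E, had FPKM of 0.326, 0.359 and 0.132 with PBS, 1.36, 6.96 and 1.00 with RANKL and 1.35, 7.25 and 2.46 with the vitamins. RANKL libraries were above all PBS libraries, 10.0-fold by the fitted value (3.32 ± 0.84, adjusted p = 0.0668, with the block 2.89 ± 0.51, adjusted p = 0.0261, 2.02 without RANKL library 2, adjusted p = 0.213). The call with RANKL was also made without vitamin library 2 (adjusted p = 0.0283). The vitamin and RANKL groups overlapped (0.38 ± 0.76, adjusted p = 0.735). Against PBS, Ccne2 rose with the vitamins (3.70 ± 0.86, adjusted p = 0.00875, 2.88 without vitamin library 2). Ccne1, the other cyclin E, had FPKM of 0.413, 0.604 and 0.472 with PBS, 1.16, 4.01 and 1.52 with RANKL and 0.752, 3.89 and 1.07 with the vitamins. It followed the same order between RANKL and PBS (1.99 ± 0.62, adjusted p = 0.119, with the block 1.77 ± 0.34, adjusted p = 0.035, 1.33 without RANKL library 2, adjusted p = 0.41, without vitamin library 2 adjusted p = 0.0256). In FPKM, vitamin libraries 1 and 3 were below RANKL libraries 1 and 3 (-0.12 ± 0.59, adjusted p = 0.894). In log2 CPM, vitamin library 3 was above RANKL library 1. Ccne1 was called higher with vitamins against PBS (1.87 ± 0.61, adjusted p = 0.037, 0.94 without vitamin library 2). The call was lost without PBS library 1, 2 or 3, at 1.82, 2.06 and 1.91 (adjusted p = 0.11, 0.0739 and 0.0975). It was also lost without vitamin library 2 (adjusted p = 0.126) or without RANKL library 3 (1.87, adjusted p = 0.0506). E2f2, an E2F factor of the activating class, moved against the rest, at FPKM 16.2, 16 and 15 with PBS, 13.9, 12.4 and 15 with RANKL and 3.47, 13.2 and 5.32 with the vitamins. Vitamin libraries 1 and 3 were far below all other libraries, while vitamin library 2 was within the range of the RANKL libraries (-0.83 ± 0.35, adjusted p = 0.1, -1.44 without vitamin library 2, adjusted p = 0.000251). Against PBS the gene fell (-1.14 ± 0.35, adjusted p = 0.0302, -1.75 without vitamin library 2). This call was lost without any 1 of the PBS libraries (adjusted p = 0.0933, 0.0794 and 0.0811) or without vitamin library 1 (adjusted p = 0.0741) or 3 (adjusted p = 0.125). E2f1, of the same class, did not pass in any comparison without the replicate block (0.49 ± 0.27, adjusted p = 0.18 with vitamins against PBS). With the block it was called higher with vitamins against PBS.

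Chromatin factors (3 genes) had medians of 1.22, 0.59 and 2.15, and all 3 rose with vitamins against PBS. Uhrf1, which brings the maintenance DNA methyltransferase to newly copied DNA, had the largest fitted changes of the 42 genes against PBS, with FPKM of 0.169, 1.29 and 0.0975 with PBS, 2.29, 16.4 and 2.29 with RANKL and 5.10, 17.3 and 6.19 with the vitamins. PBS library 2 was above the other PBS libraries and RANKL library 2 above the other RANKL libraries, without overlap between the groups (3.58 ± 1.10, adjusted p = 0.116, with the block 3.71 ± 0.41, adjusted p = 0.00659, 2.06 without RANKL library 2, adjusted p = 0.424). Against PBS it rose 18.0-fold with the vitamins (4.17 ± 1.13, adjusted p = 0.0171). Without PBS library 2 the log2 fold change was 6.12 and without vitamin library 2 it was 3.54. The rise did not pass without PBS library 1 or 3 (adjusted p = 0.0624 and 0.0523). Vitamin and RANKL groups overlapped (0.59 ± 0.99, adjusted p = 0.677, with voom quality weights 1.34, adjusted p = 0.0112). Chaf1a, a subunit of the assembly factor that deposits histones behind the fork, had FPKM of 1.26, 1.85 and 0.744 with PBS, 2.18, 5.81 and 1.92 with RANKL and 3.57, 6.19 and 3.63 with the vitamins. It was called with RANKL against PBS under the block (1.22 ± 0.43, adjusted p = 0.169, with the block 1.15 ± 0.22, adjusted p = 0.0317, 0.59 without RANKL library 2, adjusted p = 0.567) and rose with vitamins against PBS (1.80 ± 0.44, adjusted p = 0.0109). Its partner Chaf1b rose with vitamins against PBS (2.15 ± 0.48, adjusted p = 0.00714).

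Further genes of the same processes were read from lists that leave out the 42. Beside their counts stand the shares of all genes, of which 2.35% were called higher and 1.26% lower with RANKL against PBS. With vitamins against RANKL these shares were 16.4% and 17.2%, and with vitamins against PBS 19.8% and 21.0%. Of 34 other genes of the replication machinery, none was called with RANKL against PBS, 9 rose (26.5%) and 1 fell with vitamins against RANKL, and 21 rose (61.8%) and 2 fell with vitamins against PBS. Mtbp, a helper of origin firing (2.04 ± 0.36, adjusted p = 0.00397), and the origin recognition subunits Orc2 (0.92 ± 0.17, adjusted p = 0.00441) and Orc4 (0.85 ± 0.17, adjusted p = 0.0058) were called with vitamins against RANKL. Cdc7, the kinase that fires origins, rose with vitamins against PBS (3.88 ± 0.53, adjusted p = 0.000824) and was not called with RANKL against PBS (2.0 ± 0.49, adjusted p = 0.0612). Pold4, a small subunit of polymerase delta, and Rnaseh2c, a subunit of ribonuclease H2, were the 2 that fell against PBS (-0.89 ± 0.19, adjusted p = 0.00678 and -0.66 ± 0.21, adjusted p = 0.0318), and Rnaseh2c was the 1 that fell against RANKL (-0.66 ± 0.21, adjusted p = 0.0372). Both were named after their values were seen.

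Of 22 other G1 to S regulators, 1 rose with RANKL against PBS, 4 rose (18.2%) and 2 fell with vitamins against RANKL, and 8 rose (36.4%) and 2 fell with vitamins against PBS. The share that rose with vitamins against RANKL was near that of all genes. The gene that rose with RANKL was Myc, a transcription factor of growth and proliferation (3.93 ± 0.72, adjusted p = 0.0217), which rose again with the vitamins (2.37 ± 0.65, adjusted p = 0.0219). FPKM of Myc was 0.217, 0.636 and 0.345 with PBS, 4.0, 14.0 and 2.57 with RANKL and 48.1, 18.5 and 25 with the vitamins. Here library 1 of the vitamin group was the highest, as it was for 2 of the 42 members. Lin54 (2.27 ± 0.29, adjusted p = 0.00112) and Lin9 (1.53 ± 0.31, adjusted p = 0.00624), parts of the complex that regulates cell cycle promoters, and E2f3 (0.87 ± 0.14, adjusted p = 0.00296), the E2F factor of the activating class outside the 42, rose with the vitamins against RANKL. Tfdp2, a partner of E2F factors, and Rbl2, a pocket protein of resting cells, fell (-0.49 ± 0.16, adjusted p = 0.0445 and -0.38 ± 0.12, adjusted p = 0.0323), named here after their values were seen.

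Of 8 other chromatin factors of replication, none was called with RANKL against PBS, 5 rose (62.5%) with vitamins against RANKL and 6 rose (75.0%) with vitamins against PBS. The histone methyltransferase Kmt5a (1.28 ± 0.20, adjusted p = 0.0024) and the histone chaperone Nasp (1.45 ± 0.29, adjusted p = 0.006) were among the 5. Of 25 other enzymes of nucleotide synthesis, 4 rose (16%) with RANKL against PBS, 4 rose (16%) and 1 fell with vitamins against RANKL, and 15 rose (60.0%) and 3 fell with vitamins against PBS. Here too the share that rose with vitamins against RANKL was near that of all genes. The 4 that rose with RANKL were the purine enzymes Atic (0.98 ± 0.16, adjusted p = 0.0148), Impdh1 (0.46 ± 0.10, adjusted p = 0.0355) and Impdh2 (1.06 ± 0.20, adjusted p = 0.0259) and the cytidine nucleotide enzyme Ctps (1.81 ± 0.38, adjusted p = 0.036). Samhd1, which degrades deoxynucleotides, fell with the vitamins against RANKL (-1.52 ± 0.23, adjusted p = 0.00204). The median log2 fold change of the 4 lists with vitamins against RANKL was 0.49, 0.42, 0.97 and 0.16, in the order given.

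Some of these values are less certain than their error shows. Whether reads were counted by strand is not given in the sources used here. Several members overlap another expressed gene on the opposite strand, among them Orc6 (Vps35, up to 27072 counts), Rfc2 (Lat2, up to 22057), Rfc4 (Eif4a2, up to 20852), Rfc5 (Wsb2, up to 8523), Mcm7 (Cops6, up to 4837), Chaf1a (Ubxn6, up to 3764), Cdc45 (Ufd1, up to 3254) and Ccne2 (Ints8, up to 3155). Pcna has a pseudogene, Pcna-ps2, with up to 231 counts, against at least 3941 for Pcna itself.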

How the data were processed

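Poly(A) RNA of cultured mouse macrophages was sequenced on an Illumina NovaSeq. Counts were deposited as whole numbers of reads per gene without normalization, and FPKM values were computed by the authors with scaling to gene length and library. Per the labels, the submitters' notes name cutadapt 1.9, HISAT2 2.0.4, StringTie 1.3.4d and edgeR, and list the human build hg38 for these mouse libraries. The gene positions of 25633 of 28294 shared identifiers equal those of GENCODE M21 (GRCm38), and those of 36 of the 42 members. Groups and replicate numbers came from the sample titles. The tests ran in edgeR 4.0.16 under R 4.3.3 (filterByExpr, TMM, quasi-likelihood test, threshold 0.05) and covered 17002 genes. SE was taken as the absolute log2 fold change over the root of F. Errors do not cover duplicate reads, since no molecular identifiers are described.

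Deviations from the group means were correlated between libraries of the same number, and all 3 values were above 0.1 for RANKL against PBS (0.122, 0.219 and 0.155), so that these numbers were taken to pair the libraries. No label or method states such a pairing. Alternatives were DESeq2 1.42.0, limma 3.58.1 on log2(FPKM + 1) and log2(FPKM + 0.1), voom with sample quality weights, other size factors and filters, only the 2 groups compared, the replicate block, each library left out and, chosen after seeing the data, all replicate 2 libraries removed. The fits were also run on simulated counts with a fixed dispersion and no shift of replicate 2. That run says nothing about the calls that turn on replicate 2. The members and lists were chosen with earlier results of these data known. Values in every library are given for the gene of highest mean FPKM and the 2 of largest change in each role and for any member called against the direction of its role. The largest change was the larger absolute log2 fold change of RANKL against PBS and vitamins against RANKL. Vitamins against PBS was not used for it. Of each further list and comparison, at most 4 genes by p-value are named with their fold changes.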

Additional observations from a re-analysis of the deposited data

How the results depend on the processing

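The direction of the median over the 42 genes was the same in all 3 comparisons under every alternative run, but the number of genes called depended on the processing. For RANKL against PBS, 0 of the 42 genes were called in the model as reported, 15 by DESeq2, 11 with voom quality weights, 4 with only the 2 groups compared, 14 with the replicate block and 22 with the replicate 2 libraries removed, and 0 to 4 when 1 library was left out. The genes called among all genes, 614 as reported, were 1689 by DESeq2, 3006 with quality weights, 1736 with only the 2 groups compared, 1740 with the replicate 2 libraries removed and 126 to 1903 with 1 library left out, and the median of the 42 genes ran from 0.47 to 1.48 with 1 library left out. For vitamins against RANKL, 1 gene of the 42 was called as reported, 8 by DESeq2, 26 with quality weights, 27 with the replicate 2 libraries removed and 1 to 22 with 1 library left out, with a median of 0.25 to 1.27. Among all genes, 5725 were called as reported, 10698 with quality weights, 8952 with the replicate 2 libraries removed and 3199 to 8259 with 1 library left out. For vitamins against PBS, 35 of the 42 were called as reported and 20 to 36 with 1 library left out, with a median of 1.49 to 2.04. The median was 1.24 on log2(FPKM + 1), a scale that understates the change of low genes, and among all genes 10899 were called with quality weights, against 6932 as reported, and 4766 to 8868 with 1 library left out. In the 2 comparisons with the vitamins, libraries share only a replicate number (correlations of 0.00625, 0.0428 and 0.107 against RANKL and of -0.0216, 0.0217 and 0.0237 against PBS), and not every library deviated most like that of its own number. With the replicate block, 19 of the 42 genes were then called against RANKL and 40 against PBS. Among all 17002 genes, 5873 and 7041 were called in these 2 comparisons with the block. For the named genes, 18 fitted values of vitamins against RANKL changed sign, none of them called. Gins4 was at 0.0033 with quality weights, and with 1 library left out Ccne1 ran from -1.05 to 0.55, Ccne2 from -0.45 to 1.68, Fen1 from -0.74 to 0.23, Gins4 from -0.24 to 0.18, Rfc5 from -0.13 to 0.70, Rrm2 from -0.86 to 1.60, Tyms from -0.0898 to 1.47 and Uhrf1 from -0.0437 to 2.11. Of the other values of named genes, 1031 kept their direction and side of the threshold, 111 passed it newly and 37 no longer passed. The cause of these changes was not tested. Depth limits the low members most, of which Uhrf1 had 32 counts and Ccne2 35 in their lowest library, and each group has 3 libraries.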
